A study of Mus musculus with 120 samples.

Results

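Glucose transporter and glycolysis genes were followed in dissected gastrula parts and in embryonic stem (ES) cells differentiated into neural progenitors. They were chosen by name, as 10 of the 23154 genes in each of 2 count tables: the glucose transporters Slc2a1 and Slc2a3, the hexokinases Hk1 and Hk2, Pfkp, Aldoa, Pgk1, Eno1, Ldha and Pdk1. Of the 10, 9 passed the filter on low counts in both tables and were tested. Eno1 was listed at 0 counts in every library. RNA was sequenced in 28 of the 120 samples of the series, 18 from embryos and 10 from cells.

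The embryos were of the ICR strain, collected at embryonic day (E) 6.5, 7.0 and 7.5. Each part was represented by 2 libraries. At E6.5 these parts were ExE, the extra-embryonic part, and Epi, the embryonic part. At E7.0 they were ExE and the embryonic regions P and A, and at E7.5 ExE, AM, P and A. The labels give the regions by these letters alone and do not say how many embryos entered a library. The cells came from the mouse ES line E14, cultured as E14/TG2A. KO cells carry a CRISPR-Cas9 deletion of an enhancer called Enh9E, and WT cells are wild-type E14 cells. Both were sampled as ES cells (D0) and as neural progenitors after 8 days of differentiation (D8). There were 3 KO D8, 2 WT D8, 3 KO D0 and 2 WT D0 libraries. The labels do not give the number of clones, the position of Enh9E or its target gene, so the deletion could not be checked from gene counts.

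Glycolysis turns glucose into pyruvate in the cytosol. The facilitative transporters GLUT1 (Slc2a1) and GLUT3 (Slc2a3) let glucose in, hexokinases trap it by phosphorylation, and phosphofructokinase (Pfkp is the platelet-type subunit) commits it to the pathway. Aldolase A (Aldoa) splits the sugar, phosphoglycerate kinase (Pgk1) makes ATP, and enolase (Eno1) makes phosphoenolpyruvate. Lactate dehydrogenase A (Ldha) reduces pyruvate to lactate, and pyruvate dehydrogenase kinase (Pdk1) slows the oxidation of pyruvate by inhibiting pyruvate dehydrogenase. Many of these genes are well-known targets of the hypoxia-inducible factors (HIFs), which bind a short core motif, ACGTG or GCGTG. Early postimplantation mouse embryos and ES cells are known for high glycolytic activity.

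RefSeq start-site windows (GRCm38.p6, 250 bases before to 50 after a start) were found for 9 of the 10 genes, all but Slc2a3. The 4 windows below are shown because they belong to Ldha, Pgk1, Pdk1 and Aldoa. These had the lowest KO over WT fold changes among the genes called lower at D8. Pfkp had a fold change of -1.24 but was not called, and its window, with 4 matches of the core motif, is not shown. Capitals mark the letters ACGTG or GCGTG on either strand (CACGT or CACGC on the strand shown). The palindrome CACGTG is read on both strands. Ldha and Pdk1 are given by their first RefSeq window and Aldoa by its second, the first of its windows with a match.
Ldha, chr7:46845554-46845853, plus strand: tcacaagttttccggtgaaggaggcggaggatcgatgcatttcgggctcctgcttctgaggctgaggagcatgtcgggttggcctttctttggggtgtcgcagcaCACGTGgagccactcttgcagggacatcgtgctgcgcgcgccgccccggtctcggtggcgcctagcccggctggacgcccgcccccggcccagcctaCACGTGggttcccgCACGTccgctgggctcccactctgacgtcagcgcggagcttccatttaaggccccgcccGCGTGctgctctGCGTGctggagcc
Pgk1, chrX:106186850-106187149, plus strand: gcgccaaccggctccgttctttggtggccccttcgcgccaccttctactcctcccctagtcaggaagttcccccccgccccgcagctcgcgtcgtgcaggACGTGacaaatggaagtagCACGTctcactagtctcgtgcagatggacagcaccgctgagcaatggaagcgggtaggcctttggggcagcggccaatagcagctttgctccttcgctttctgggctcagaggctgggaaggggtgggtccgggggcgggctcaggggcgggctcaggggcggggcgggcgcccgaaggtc
Pdk1, chr2:71872974-71873273, plus strand: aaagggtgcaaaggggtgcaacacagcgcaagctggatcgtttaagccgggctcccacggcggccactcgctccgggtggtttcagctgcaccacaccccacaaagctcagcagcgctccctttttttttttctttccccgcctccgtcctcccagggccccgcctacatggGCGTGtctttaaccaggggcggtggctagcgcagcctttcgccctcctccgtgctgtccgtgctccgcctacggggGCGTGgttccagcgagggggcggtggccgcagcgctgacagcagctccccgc
Aldoa, chr7:126799205-126799504, minus strand: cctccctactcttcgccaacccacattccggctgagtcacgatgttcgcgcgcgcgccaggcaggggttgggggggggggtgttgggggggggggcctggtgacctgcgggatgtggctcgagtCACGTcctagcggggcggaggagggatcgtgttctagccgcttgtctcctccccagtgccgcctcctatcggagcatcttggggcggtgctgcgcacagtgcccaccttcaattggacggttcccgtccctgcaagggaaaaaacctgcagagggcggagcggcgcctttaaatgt
The Ldha window held 7 matches on the 2 strands, with 2 copies of CACGTG. The Pgk1 and Pdk1 windows held 2 matches each and this Aldoa window 1. Counting the first window of each gene, 7 of 9 members held at least 1 match, against 43.8% of all 32851 windows of the same length. Of these 9 first windows, 4 held ACGTG, 5 GCGTG and 1 CACGTG. The share of all windows was 19.6% for ACGTG, 32.4% for GCGTG and 7.15% for CACGTG. All windows were used as the background, without matching for GC content. A match describes the letters only and is not a bound site.

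Total counts per library ranged between 5145033 and 17138732 in embryos and between 5962176 and 13182032 in cells. Levels below are CPM, counts scaled to a common library size, here after TMM normalization, which are not divided by transcript length and so are not compared between genes. All fold changes are log2 values, printed with a standard error (SE), from edgeR's quasi-likelihood test, with Benjamini-Hochberg adjustment over all genes of the table and a threshold of 0.05. Replicates are separate samples by label. Whether different embryos or cultures lie behind them is not stated. At E6.5 and E7.5, though, replicate 1 libraries had 672 to 1174 counts of the Y-linked Ddx3y and replicate 2 libraries 0 or 1. Replicates of those stages thus held RNA of different embryos, and their spread includes sex. The p-values reflect only how far these samples spread, which at E7.0 and in the cells may be technical. Defining markers separated the parts: summed epiblast markers reached 8.28 to 43.7 CPM in the 6 ExE libraries, against 140 to 866 CPM in the 12 embryonic ones, with at most 1 of the 4 markers at 0 in any ExE library. Extra-embryonic ectoderm markers were higher in ExE at each stage but overlapped between stages and were not low in all embryonic libraries. They summed to 337 and 261 CPM in ExE, against 92.0 and 115 CPM in Epi at E6.5, and to 99.8 and 119 CPM in ExE, against 7.61 to 45.2 CPM in the embryonic regions at E7.5. At E7.0 they summed to 231 and 266 CPM in ExE, 173 and 217 CPM in P and 58.2 and 70.0 CPM in A. Eomes is on both this list and the primitive streak list, so the sum in P is not particular to extra-embryonic ectoderm. The streak markers summed to 936 and 742 CPM in P at E7.0, against 122 and 88.1 CPM in A. The part of these marker genes' RNA in the E7.0 differences was not tested. Visceral endoderm markers were high in ExE at every stage (4397 to 15714 CPM) and ranged between 11.7 and 6580.4 CPM in the embryonic libraries. In the cells, naive pluripotency markers summed to 33.7 to 158 CPM at D8, against 3008 to 3589 CPM at D0, and neural progenitor markers to 372 to 673 CPM at D8, against 25.1 to 41.1 CPM at D0.

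In embryos, the transporter and enzyme genes did not move as a block between ExE and the embryonic parts. Pfkp passed the test in ExE at all 3 stages and Hk1 and Pdk1 at E7.0, all higher in ExE, and Slc2a1 was lower in ExE at E7.5. At E6.5, 1 of 9 members was called, higher in ExE, where 8.93% of all tested genes were called and 3.69% called higher. At E7.0, 3 of 9 were called higher, where 18.1% of all genes were called and 10% called higher. At E7.5, 1 was called higher and 1 lower, where 21.3% of all genes were called, 13.4% higher and 7.91% lower. The median fold change of the members was -0.11, -0.25 and 0.13, beside 0.03, -0.04 and -0.02 over all genes. In such bulk samples, fewer cells of a type and less RNA per cell cannot be told apart.

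**Figure D1:**
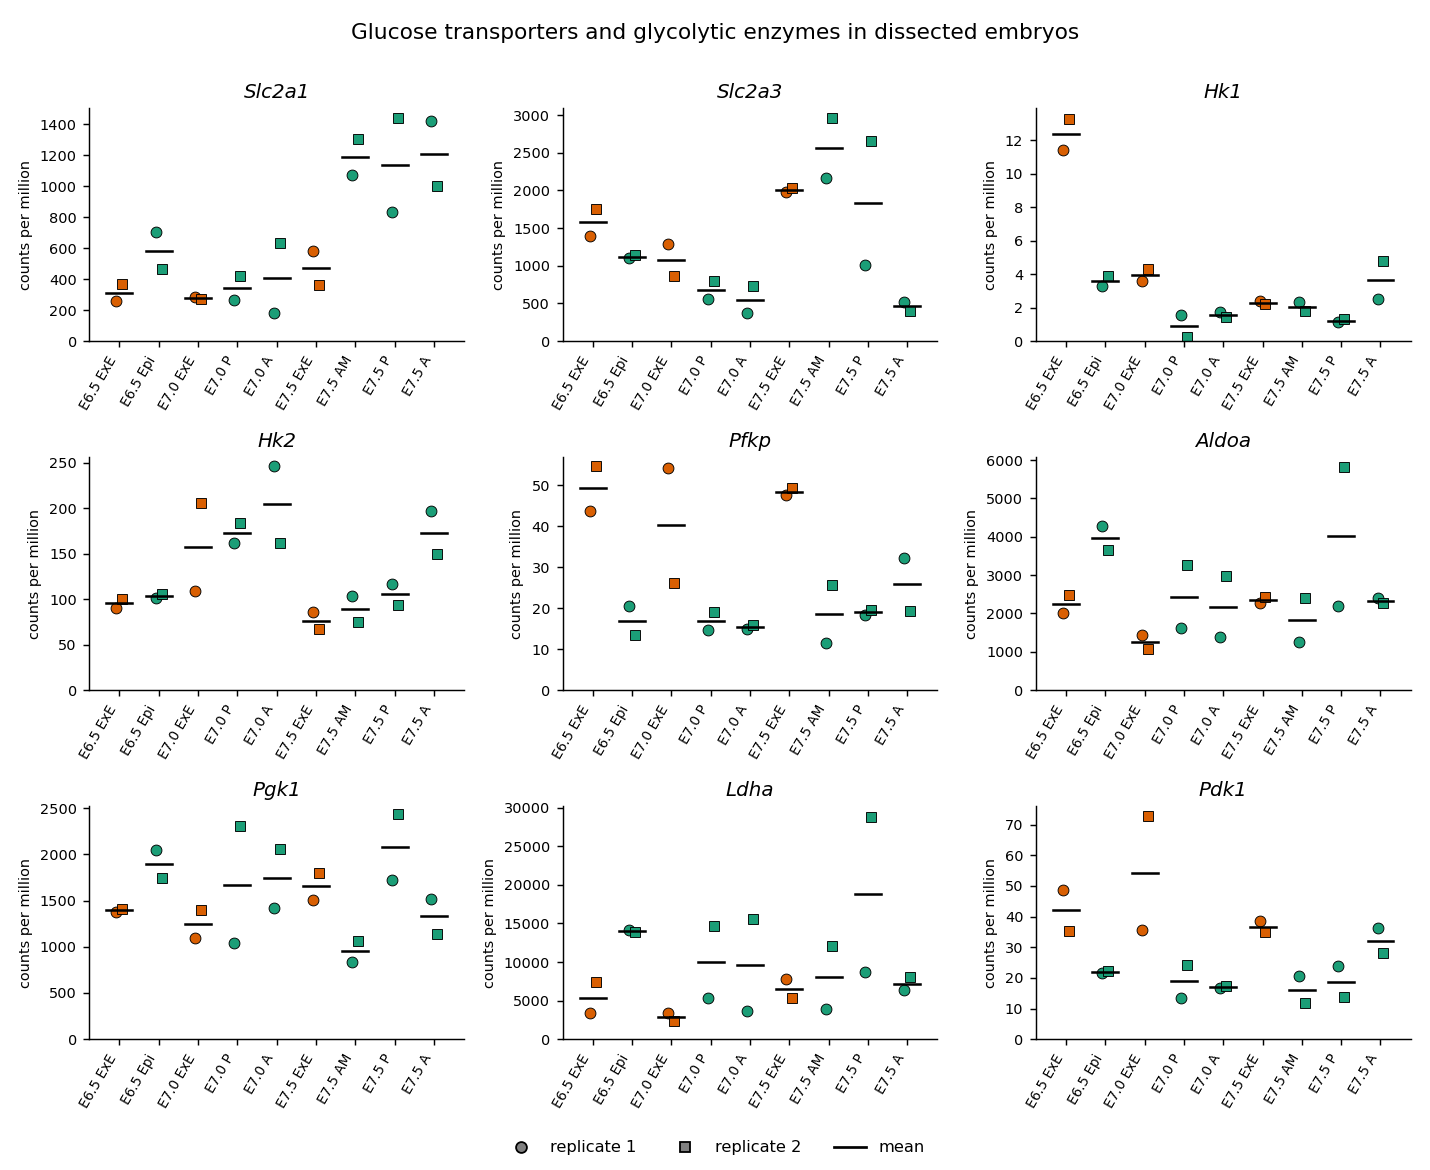
Levels of the 9 counted genes in the 18 embryo libraries, in CPM on an axis that starts at 0, by part and stage. Orange marks ExE and green the embryonic parts, circles are replicate 1, squares replicate 2, and bars are means. Pfkp is higher in the 6 ExE libraries (26.3 to 54.7 CPM) than in 11 of the 12 embryonic ones, while Ldha differs severalfold between replicates of E7.0 A (3630.4 and 15633 CPM).

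Slc2a1 lies on chromosome 4 (119108745-119137330). At E7.5 it had 582 and 361 CPM in ExE, against 1074 and 1307 CPM in AM, 834 and 1441 CPM in P, and 1420.2 and 1003 CPM in A. Both ExE libraries lay below all 6 embryonic libraries, and the fold change of ExE over the embryonic mean was -1.32 ± 0.42 (SE; edgeR adjusted p = 0.0348). At E6.5 it had 257 and 371 CPM in ExE and 702 and 469 CPM in Epi (fold change -0.90 ± 0.48, edgeR adjusted p = 0.278). The E7.0 values were 283 and 270.2 CPM in ExE, 266 and 419.8 CPM in P, and 185 and 633 CPM in A, with overlapping ranges (-0.44 ± 0.42, edgeR adjusted p = 0.5). The ExE difference at E7.5 minus that at E6.5 was -0.42 ± 0.62 and did not pass (edgeR adjusted p = 0.877). The E7.5 call was lost without either ExE library, P replicate 2 or A replicate 1 (fold change -1.83 to -1.04, edgeR adjusted p 0.0518 to 0.336).

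Slc2a3, on chromosome 6 (122727809-122802363), had fold changes of the opposite sign in ExE. It had 1395 and 1754 CPM in ExE and 1101 and 1139 CPM in Epi at E6.5. At E7.0 it had 1282 and 862 CPM in ExE, 561 and 798 CPM in P, and 372 and 727 CPM in A, so both ExE libraries lay above the 4 embryonic ones. At E7.5 it had 1978 and 2026 CPM in ExE, inside the embryonic range of 401 to 2959.6 CPM. None of the 3 differences passed (fold changes 0.49 ± 0.44, 0.81 ± 0.37 and 0.63 ± 0.35, edgeR adjusted p = 0.552, 0.141 and 0.217), though the E7.0 one passed when libraries were scaled by total counts (1.02).

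The balance of the 2 transporters separated the parts within each library. The log2 ratio of Slc2a3 to Slc2a1 counts ranged between 1.67 and 2.49 in the 6 ExE libraries, against -1.44 to 1.28 in the 12 embryonic ones, so the groups did not overlap. This ratio needs no scaling between libraries but is not corrected for transcript length, so it shows a difference between parts and not which transporter was the more abundant. It was -1.44 and -1.32 in A at E7.5, and lay above 0 in the other 16 embryo libraries. No test was made of it.

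**Figure D2:**
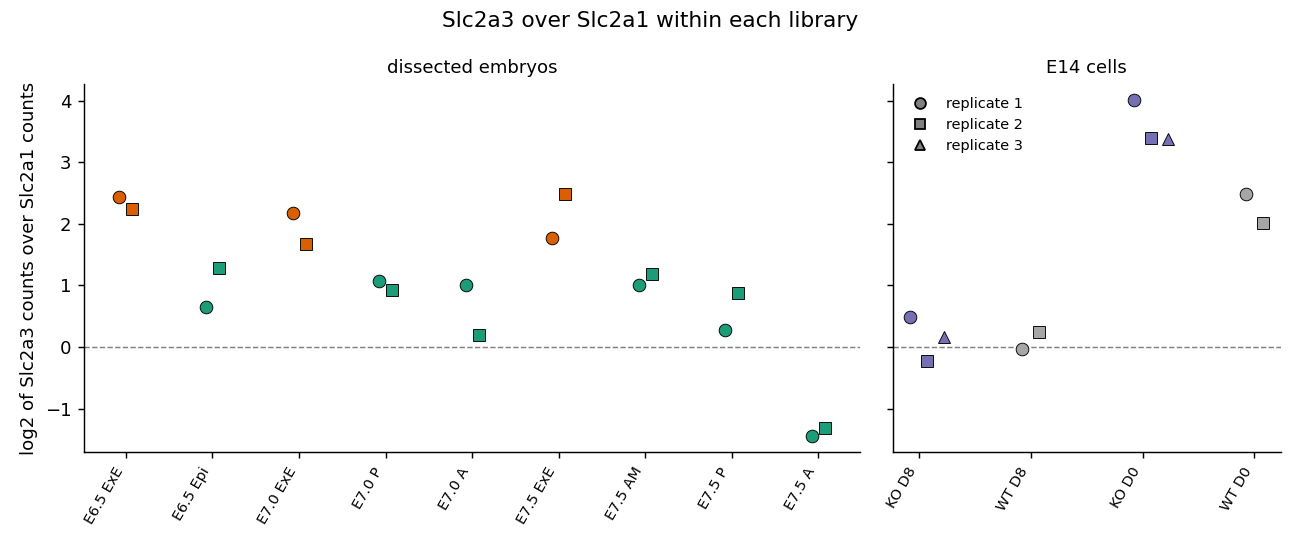
Log2 ratio of Slc2a3 to Slc2a1 counts in each of the 28 libraries, by group. Points are libraries. The 6 ExE points lie between 1.67 and 2.49, the 2 A points at E7.5 are the lowest of all, and the cells fall to between -0.22 and 0.50 at D8 against 2.02 to 4.0 at D0.

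The hexokinases catalyse the first step. Hk1 (chromosome 10, 62268855-62379920) had low counts throughout: 11.4 and 13.2 CPM in ExE and 3.31 and 3.86 CPM in Epi at E6.5. At E7.0 it had 3.60 and 4.32 CPM in ExE, 1.55 and 0.254 CPM in P, and 1.75 and 1.42 CPM in A. The E7.0 groups did not overlap, and Hk1 was higher in ExE (1.65 ± 0.54, edgeR adjusted p = 0.042). The E6.5 difference was as large but did not pass (1.78 ± 0.63, edgeR adjusted p = 0.0888). At E7.5 Hk1 had 2.38 and 2.19 CPM in ExE, inside the embryonic range of 1.12 to 4.78 CPM (0.13 ± 0.51, edgeR adjusted p = 0.883). The change of the ExE difference between E6.5 and E7.5 was not called either (-1.64 ± 0.82, edgeR adjusted p = 0.538). The E7.0 call was lost without ExE replicate 2, P replicate 2 or either A library (1.31 to 1.75, edgeR adjusted p 0.0803 to 0.155), with total-count scaling, with no filter and in a fit of the compared groups alone.

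Hk2 (chromosome 6, 82725025-82774454), the hexokinase of growing and insulin-sensitive tissues, was not called in ExE at any stage. At E7.5 it had 85.3 and 67.2 CPM in ExE, 103 and 74.9 CPM in AM, 117 and 93.7 CPM in P, and 197 and 149 CPM in A (-0.62 ± 0.27, edgeR adjusted p = 0.117). At E7.0 the values were 109 and 206 CPM in ExE, 161 and 183 CPM in P, and 247 and 162 CPM in A (-0.25 ± 0.28, edgeR adjusted p = 0.562). Its ranges overlapped at all 3 stages except E6.5, where ExE had 90.4 and 100.3 CPM and Epi 101 and 105 CPM (-0.11 ± 0.32, edgeR adjusted p = 0.879).

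Pfkp (chromosome 13, 6579874-6649060) was the member most regularly higher in ExE. At E6.5 it had 43.8 and 54.7 CPM in ExE, against 20.4 and 13.5 CPM in Epi (1.54 ± 0.42, edgeR adjusted p = 0.0311). At E7.0 it had 54.2 and 26.3 CPM in ExE, 14.8 and 19.0 CPM in P, and 14.9 and 16.0 CPM in A (1.33 ± 0.35, edgeR adjusted p = 0.015). At E7.5 it had 47.6 and 49.2 CPM in ExE, 11.5 and 25.6 CPM in AM, 18.3 and 19.7 CPM in P, and 32.3 and 19.3 CPM in A (1.21 ± 0.32, edgeR adjusted p = 0.0124). The ExE libraries lay above all embryonic libraries of the same stage each time. Leaving out any 1 of the 4 libraries ended the E6.5 call (1.26 to 1.84, edgeR adjusted p 0.0914 to 0.243), as did leaving out ExE replicate 1 (0.75, 0.165) or P replicate 1 (1.24, 0.0534) for E7.0 and either ExE library (1.12 to 1.16, 0.0913 to 0.131) for E7.5. The E7.0 call was also lost in a fit of the compared groups alone (1.30), and the E7.5 call with total-count scaling (0.93). The direction stayed the same in all of these fits.

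Further down the pathway, Aldoa (chromosome 7, 126795234-126800994) had 2022 and 2486 CPM in ExE and 4267 and 3662 CPM in Epi at E6.5, without passing the test (-0.81 ± 0.51, edgeR adjusted p = 0.358). At E7.0 it had 1431 and 1071 CPM in ExE, 1621 and 3258 CPM in P, and 1387 and 2972 CPM in A (-0.88 ± 0.45, edgeR adjusted p = 0.184). Aldoa at E7.5 had 2275 and 2429 CPM in ExE, inside the embryonic range of 1249 to 5830.4 CPM (-0.13 ± 0.41, edgeR adjusted p = 0.855). The ExE libraries thus lay below the embryonic ones at E6.5 only. Pgk1 (chromosome X, 106187100-106203699) had 1382 and 1409 CPM in ExE and 2046 and 1744 CPM in Epi at E6.5 (-0.44 ± 0.40, edgeR adjusted p = 0.549). At E7.0 it had 1096 and 1403 CPM in ExE, 1037 and 2303 CPM in P, and 1424 and 2059.7 CPM in A (-0.45 ± 0.35, edgeR adjusted p = 0.389). At E7.5 it had 1509 and 1798 CPM in ExE, 839 and 1059 CPM in AM, 1726 and 2439 CPM in P, and 1523 and 1142 CPM in A (0.26 ± 0.32, edgeR adjusted p = 0.607). Its ranges overlapped at these 2 stages. Pgk1 is X-linked, and at E6.5 and E7.5 the libraries of replicate 2 had 0 or 1 count of the Y-linked Ddx3y, against 672 to 1174 counts in those of replicate 1. The part of this in the spread of Pgk1 was not tested.

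Eno1 (chromosome 4, 150236708-150248879) had 0 counts in all 28 libraries, while its near copy Eno1b was counted in every library, with 882 to 20815 counts in embryos and 3492 to 9052 in cells. A gene that nearly every cell uses thus stood at 0, and how the counting divided enolase reads between the 2 names is unknown, so no value for enolase 1 is drawn from them. Eno1b itself was lower in ExE at E7.0 (-1.97 ± 0.57, edgeR adjusted p = 0.026) and was called in none of the other comparisons. Near copies of other members held few counts: Aldoart1, Aldoart2 and Pgk2 reached at most 5 in any embryo or cell library, Ldhc at most 137 and Ldhal6b at most 40.

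Ldha (chromosome 7, 46842274-46855627) differed severalfold between replicates of several groups. At E6.5 it had 3341 and 7357 CPM in ExE and 14146 and 13945 CPM in Epi. At E7.0 it had 3347 and 2372 CPM in ExE, 5369 and 14621 CPM in P, and 3630.4 and 15633 CPM in A. The groups did not overlap at these 2 stages, but the fold changes of -1.39 ± 0.74 and -1.78 ± 0.69 did not pass (edgeR adjusted p = 0.272 and 0.0805). DESeq2 called the E7.0 difference (-1.76). At E7.5 the ExE values of 7765 and 5366 CPM lay within the embryonic range of 3889 to 28836 CPM. In P, A and ExE at E7.0, the library with the more Ldha was also the one with more visceral endoderm marker RNA. The order was the same in P, AM and A at E7.5 and in ExE at E6.5. In E7.5 P, for example, the libraries with 28836 and 8768 CPM of Ldha had 6127 and 453 CPM of those markers, none of which was at 0. In Epi at E6.5 and ExE at E7.5 the order was the other way, with 7765 and 5366 CPM of Ldha beside 13000.2 and 15714 CPM of markers in that ExE pair. The part of these markers in the spread of Ldha was not tested.

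Pdk1 (chromosome 2, 71873215-71903858) was higher in ExE at E7.0, where it had 35.6 and 72.9 CPM in ExE, against 13.6 and 24.1 CPM in P and 16.6 and 17.4 CPM in A, and passed (1.60 ± 0.34, edgeR adjusted p = 0.00446). At E6.5 it had 48.7 and 35.4 CPM in ExE and 21.7 and 22.2 CPM in Epi (0.94 ± 0.41, edgeR adjusted p = 0.175). At E7.5 it had 38.5 and 34.8 CPM in ExE and 11.7 to 36.2 CPM in the 6 embryonic libraries (0.78 ± 0.32, edgeR adjusted p = 0.093). Its ExE libraries lay above the embryonic ones at E6.5 and E7.0 and overlapped with A at E7.5. The E7.0 call was lost without ExE replicate 2 (0.97, edgeR adjusted p = 0.132). The summed visceral endoderm markers were 6059 and 4633 CPM in ExE at E7.0, against 1356 to 3248 CPM in P and A, and their part in these ExE differences was not tested.

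**Figure D3:**
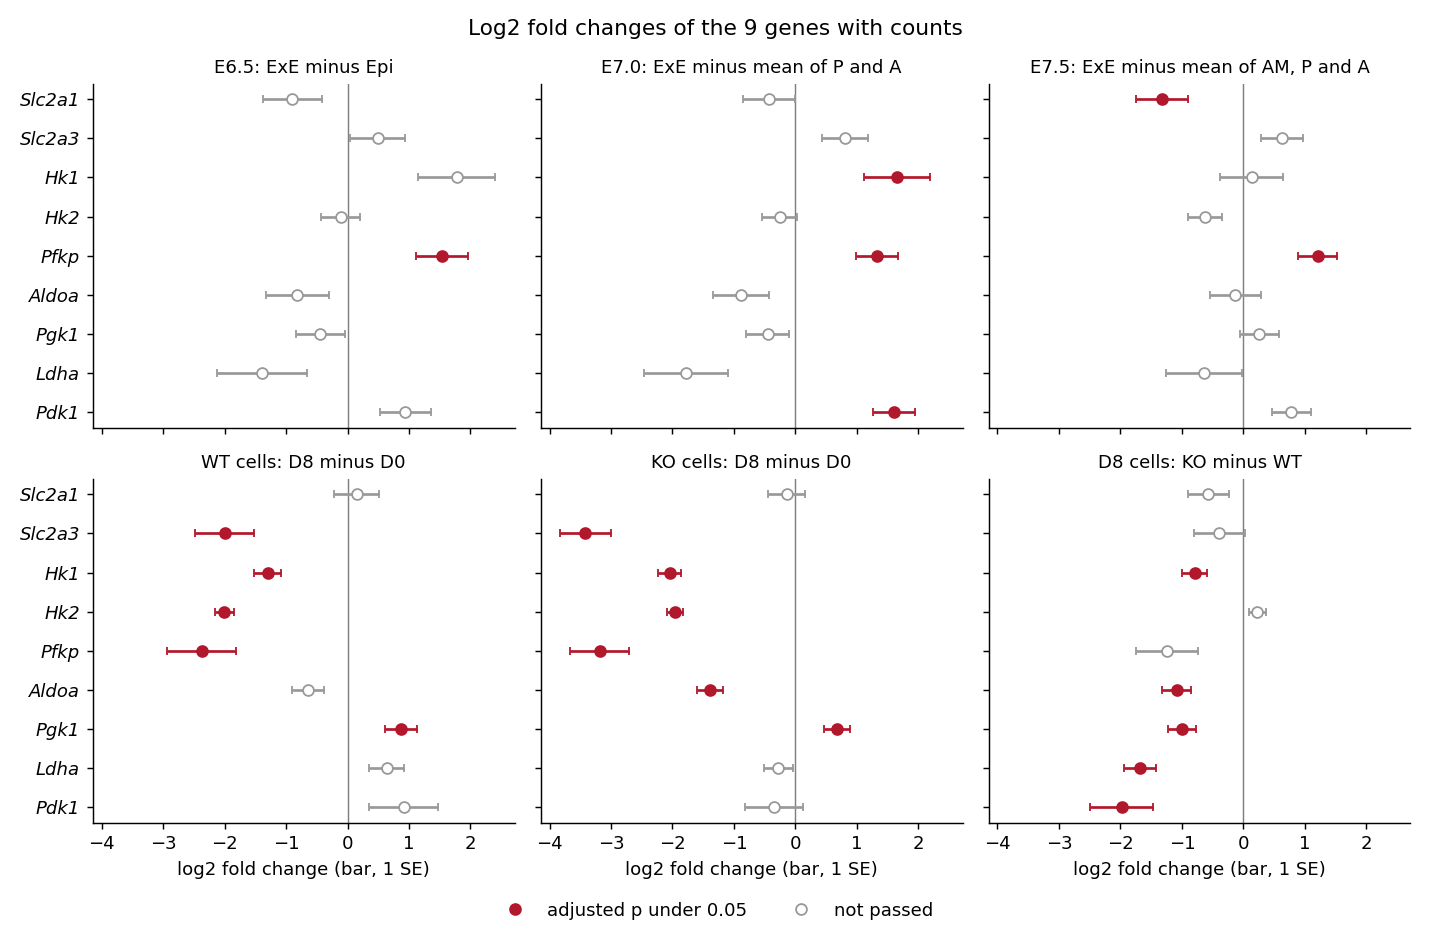
Log2 fold change with its SE of the 9 counted genes in 6 comparisons, from edgeR. Red points passed an adjusted p of 0.05 and grey ones did not. In ExE, Pfkp lies above 0 at all 3 stages (1.54, 1.33 and 1.21), and in D8 KO over WT cells 5 genes pass, all below 0.

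Other isoforms of the same steps also differed between ExE and the embryonic parts. The list of isozymes of the members' steps (20 genes, 17 tested) had 4 genes lower and 0 higher in ExE at E6.5, 5 lower and 2 higher at E7.0, and 7 lower and 3 higher at E7.5. In these 3 comparisons 8.93%, 18.1% and 21.3% of all genes were called, which also holds for the lists that follow. Ldhb, the subunit of the heart-type lactate dehydrogenase, was lower in ExE at E6.5 (-2.84 ± 0.35), E7.0 (-2.12 ± 0.31) and E7.5 (-1.5 ± 0.29), with edgeR adjusted p = 7.95e-05, 0.000263 and 0.00186. Eno3, the muscle enolase, had fold changes of -3.76 ± 0.46, -2.51 ± 0.39 and -1.23 ± 0.34 (edgeR adjusted p = 7.63e-05, 0.000454 and 0.0179). Pfkl, the liver-type phosphofructokinase subunit and so the counterpart of Pfkp, was lower in ExE at each stage (-1.5 ± 0.45, -1.63 ± 0.42 and -1.62 ± 0.40; edgeR adjusted p = 0.0473, 0.0128 and 0.00892). Pdk3, a kinase of the same family as Pdk1, was lower too (-1.24 ± 0.31, -1.27 ± 0.28 and -0.96 ± 0.26; edgeR adjusted p = 0.0179, 0.00508 and 0.015). Genes higher in ExE at E7.5 were Pgam2 (1.87), Hkdc1 (2.21) and Slc2a2 (3.83), the last a glucose transporter best known from liver, and visceral endoderm markers stood at 13000.2 and 15714 CPM in those ExE libraries.

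The 5 genes of the remaining glycolytic steps gave 1 call in these 3 comparisons, Pkm, the muscle-type pyruvate kinase, lower in ExE at E7.0 (-1.90 ± 0.61, edgeR adjusted p = 0.0394). Among 13 genes around pyruvate entry and lactate export, ExE had 2 calls up and 0 down at E6.5, 1 up and 0 down at E7.0, and 2 up and 3 down at E7.5. Mpc2, a subunit of the mitochondrial pyruvate carrier, was higher in ExE at all 3 stages (1.85, 1.62 and 2.47). Mpc1, its partner, was higher at E6.5 and E7.5 (2.01 and 1.84), and the lactate exporter Slc16a3 was lower at E7.5 (-2.85), as were the pyruvate dehydrogenase phosphatases Pdp1 (-1.97) and Pdp2 (-1.43). Of 19 other HIF target genes, 2 were higher and 0 lower at E6.5, 5 higher and 2 lower at E7.0, and 4 higher and 2 lower at E7.5. Vegfa, an angiogenic growth factor, was higher each time (3.22, 2.49 and 1.77), and Kdm3a, a histone demethylase, was lower at E7.0 (-1.71) and E7.5 (-1.28). Of 15 regulators of glycolysis, 0 were higher and 1 lower at E6.5, 3 higher and 2 lower at E7.0, and 4 higher and 2 lower at E7.5. Epas1, which encodes HIF-2α, was higher at E7.0 (4.16) and E7.5 (1.99), as was Tigar, a fructose bisphosphatase that slows glycolysis (0.96 and 1.59). Lin28b, an RNA-binding protein gene, was lower at E6.5 (-4.23) and E7.0 (-3.32). Of 7 pentose phosphate genes 1 was called at each stage, G6pdx, the first enzyme of that branch, lower in ExE (-1.32, -1.05 and -1.22).

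Within the embryonic part, 1 of the 9 genes distinguished regions. Slc2a3 at E7.5 had 2161 and 2959.6 CPM in AM, against 525 and 401 CPM in A, with no overlap (2.47 ± 0.47, 95% interval 1.48 to 3.45, edgeR adjusted p = 0.0106). This was 1 of 9 members, where 1.57% of all genes were called and 1.15% called higher. P had 1008 and 2653 CPM, above both A libraries, but the P over A difference did not pass (1.98 ± 0.46, edgeR adjusted p = 0.0884). DESeq2 called it (1.95). Slc2a1 had 1074 and 1307 CPM in AM and 1420.2 and 1003 CPM in A (-0.03 ± 0.48, edgeR adjusted p = 1), with overlapping ranges. The AM call was lost without AM replicate 2 or either A library (2.18 to 2.63, edgeR adjusted p 0.0766 to 0.124) and in a fit of AM and A alone. Definitive endoderm markers summed to 1078 and 608 CPM in AM, against 107 and 65.3 CPM in A, and visceral endoderm markers to 1208 and 6580.4 CPM in AM, against 11.7 and 518 CPM in A. None of these markers was at 0 in either region, and their part in the Slc2a3 difference was not tested.

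Between P and A at E7.0 no member was called by edgeR, where 0.00694% of all genes were. No member had an unadjusted p under 0.05 there (493 of 14403 genes had), and DESeq2 also called 0 (0.0972% of all genes). At E7.5, P over A gave 0 of 9 members in edgeR (0.236% of all genes) and 1 in DESeq2 (1.62%). At an unadjusted p under 0.05 it gave 3 (Slc2a3, Hk1 and Hk2), beside 1080 of 14403 genes. The primitive streak markers did separate these regions, with 936 and 742 CPM in P and 122 and 88.1 CPM in A at E7.0. AM over P at E7.5 gave 0 members in edgeR (0.111% of all genes) and in DESeq2 (0.854%). At an unadjusted p under 0.05 it gave 2, Aldoa and Pgk1, both with a fold change of -1.13, beside 929 of 14403 genes. The 3 comparisons of AM, P and A share libraries. Outside the members, AM over A gave 3 calls on the pathway lists, all higher in AM: Slc16a1, a lactate and pyruvate transporter (3.11 ± 0.41, edgeR adjusted p = 0.00088), Hkdc1, a hexokinase-related gene (5.73 ± 0.96, edgeR adjusted p = 0.00555), and Pygl of the gluconeogenesis and glycogen list (2.10 ± 0.49, edgeR adjusted p = 0.0373).

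Across stages, the largest shift among the members of the embryonic part was in Slc2a1. Its 2 Epi libraries at E6.5 had 702 and 469 CPM, the 4 at E7.0 had 185 to 633 CPM, and the 6 at E7.5 had 834 to 1441 CPM, above all earlier embryonic libraries. The E7.5 over E6.5 fold change was 1.01 ± 0.42 and did not pass (edgeR adjusted p = 0.249). By edgeR 0 of 9 members were called over this interval (2.63% of all genes), and by DESeq2 also 0 (5.48%). Slc2a1 alone of the members was under an unadjusted p of 0.05, beside 2162 of 14403 genes. In ExE over the same interval edgeR again called 0 members (0.972% of all genes). Hk1 had 11.4 and 13.2 CPM at E6.5, 3.60 and 4.32 CPM at E7.0 and 2.38 and 2.19 CPM at E7.5 (-2.42 ± 0.65, edgeR adjusted p = 0.0918). Of the members it alone reached an unadjusted p under 0.05 (1927 of 14403 genes did) and was called by DESeq2 (2.94% of all genes). In ExE the isozymes Eno3 (2.70, edgeR adjusted p = 0.00557) and Ldhb (2.25, edgeR adjusted p = 0.00279) rose between these stages. For the change of the ExE difference between E6.5 and E7.5, 0 members passed in edgeR (0.187% of all genes) and 0 in DESeq2 (1.15%). At an unadjusted p under 0.05 there were 0 members, beside 1418 of 14403 genes.

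Over the 9 embryo group means, the genes whose pattern was most like that of Slc2a1 included Cand2 (r = 0.966), Ctc1 (0.946), Abl1 (0.940) and 0610009O20Rik (0.939), among 7763 genes with at least 3 log2 CPM on average. For Slc2a3 they were Gsn (0.941), Rcan1 (0.919), Ak3 (0.918), Ephx2 (0.918) and Slc39a9 (0.912). For Ldha they were Eno1b (0.992), Cfl1 (0.978), Cdk4 (0.964), Polr2m (0.962) and Atp5b (0.957). These are Pearson correlations over 9 means that share libraries and scaling, given as a description.

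In WT cells, Slc2a3 and the genes of the first steps were lower in neural progenitors than in ES cells, while Pgk1 was higher. Slc2a3 had 426 and 459 CPM in WT D8 cells, against 1845 and 1679 CPM in WT D0 cells (-1.99 ± 0.48, edgeR adjusted p = 0.00412). Hk2 had 113 and 131 CPM at D8 and 494 and 485 CPM at D0 (-2.0 ± 0.16, edgeR adjusted p = 2.1e-06), and Hk1 49.3 and 56.4 CPM at D8 and 131 and 129 CPM at D0 (-1.30 ± 0.22, edgeR adjusted p = 0.000434). Pfkp had 42.4 and 41.6 CPM at D8 and 183 and 252 CPM at D0 (-2.37 ± 0.56, edgeR adjusted p = 0.00388). In none of these 4 genes did the days overlap. Pgk1 had 1199 and 1426 CPM at D8, against 582 and 859 CPM at D0 (0.87 ± 0.26, edgeR adjusted p = 0.0134). So 5 of 9 members were called, 4 lower and 1 higher, where 56.7% of all genes were, 27.3% lower and 29.4% higher. Slc2a1 had 435 and 389 CPM at D8 and 329 and 415 CPM at D0 (0.15 ± 0.37, edgeR adjusted p = 0.75). Ldha had 1149 and 1255 CPM at D8 and 629 and 918 CPM at D0 and did not pass (0.64 ± 0.29, edgeR adjusted p = 0.0792). Aldoa had 1195 and 1084 CPM at D8 and 1763 and 1785 CPM at D0 (-0.64 ± 0.26, edgeR adjusted p = 0.0535), and Pdk1 134 and 134 CPM at D8 and 48.8 and 93.7 CPM at D0 (0.91 ± 0.56, edgeR adjusted p = 0.185). The days did not overlap in Ldha, Aldoa and Pdk1, though none of the 3 was called. Non-overlap of the days was not counted over all genes, so for these members it is a description only. The Pgk1 call was lost without WT D0 replicate 1 (0.61, edgeR adjusted p = 0.138) or WT D8 replicate 2 (0.75, 0.0769).

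In KO cells the same 4 genes were lower at D8 than at D0. Slc2a3 had 626, 159 and 228 CPM in KO D8 cells, against 3535, 3512 and 3772 CPM in KO D0 cells (-3.42 ± 0.41, edgeR adjusted p = 2.99e-05). Pfkp had 37.0, 7.49 and 8.78 CPM at D8 and 178, 143 and 163 CPM at D0 (-3.18 ± 0.48, edgeR adjusted p = 0.000156). Hk1 and Hk2 had fold changes of -2.05 ± 0.18 and -1.96 ± 0.13. Aldoa, which was not called in WT cells, had 766, 439.9 and 405 CPM at D8 and 1439, 1327 and 1445 CPM at D0 (-1.39 ± 0.21, edgeR adjusted p = 0.000186). Pgk1 rose (0.68 ± 0.21, edgeR adjusted p = 0.0143), a call that was lost without KO D0 replicate 1 (0.58, 0.0636). Ldha had 525, 308 and 289 CPM at D8 and 384, 442 and 532 CPM at D0, with overlapping ranges (-0.28 ± 0.24, edgeR adjusted p = 0.322). Pdk1 had 66.5, 19.9 and 15.8 CPM at D8 and 28.4, 50.5 and 50.4 CPM at D0, and overlapped too (-0.35 ± 0.46, edgeR adjusted p = 0.528). Without KO D8 replicate 1, 9 members and 68.2% of all genes were called. Without KO D8 replicate 2 there were 6 members and 62.1%, and without KO D8 replicate 3 there were 6 and 58.5%. X-linked genes, of which Pgk1 is 1, had a median fold change of 0.55 in KO cells and 0.40 in WT cells over this interval, against 0.05 and 0.02 over all genes, and the part of this in Pgk1 was not tested. In all 6 of 9 members were called, 5 lower and 1 higher, where 64.4% of all genes were, 31% lower and 33.4% higher. The transporter ratio fell in both genotypes, to 0.50, -0.22 and 0.16 in KO D8 and -0.03 and 0.24 in WT D8 cells, against 4.0, 3.39 and 3.38 in KO D0 and 2.49 and 2.02 in WT D0 cells.

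**Figure D4:**
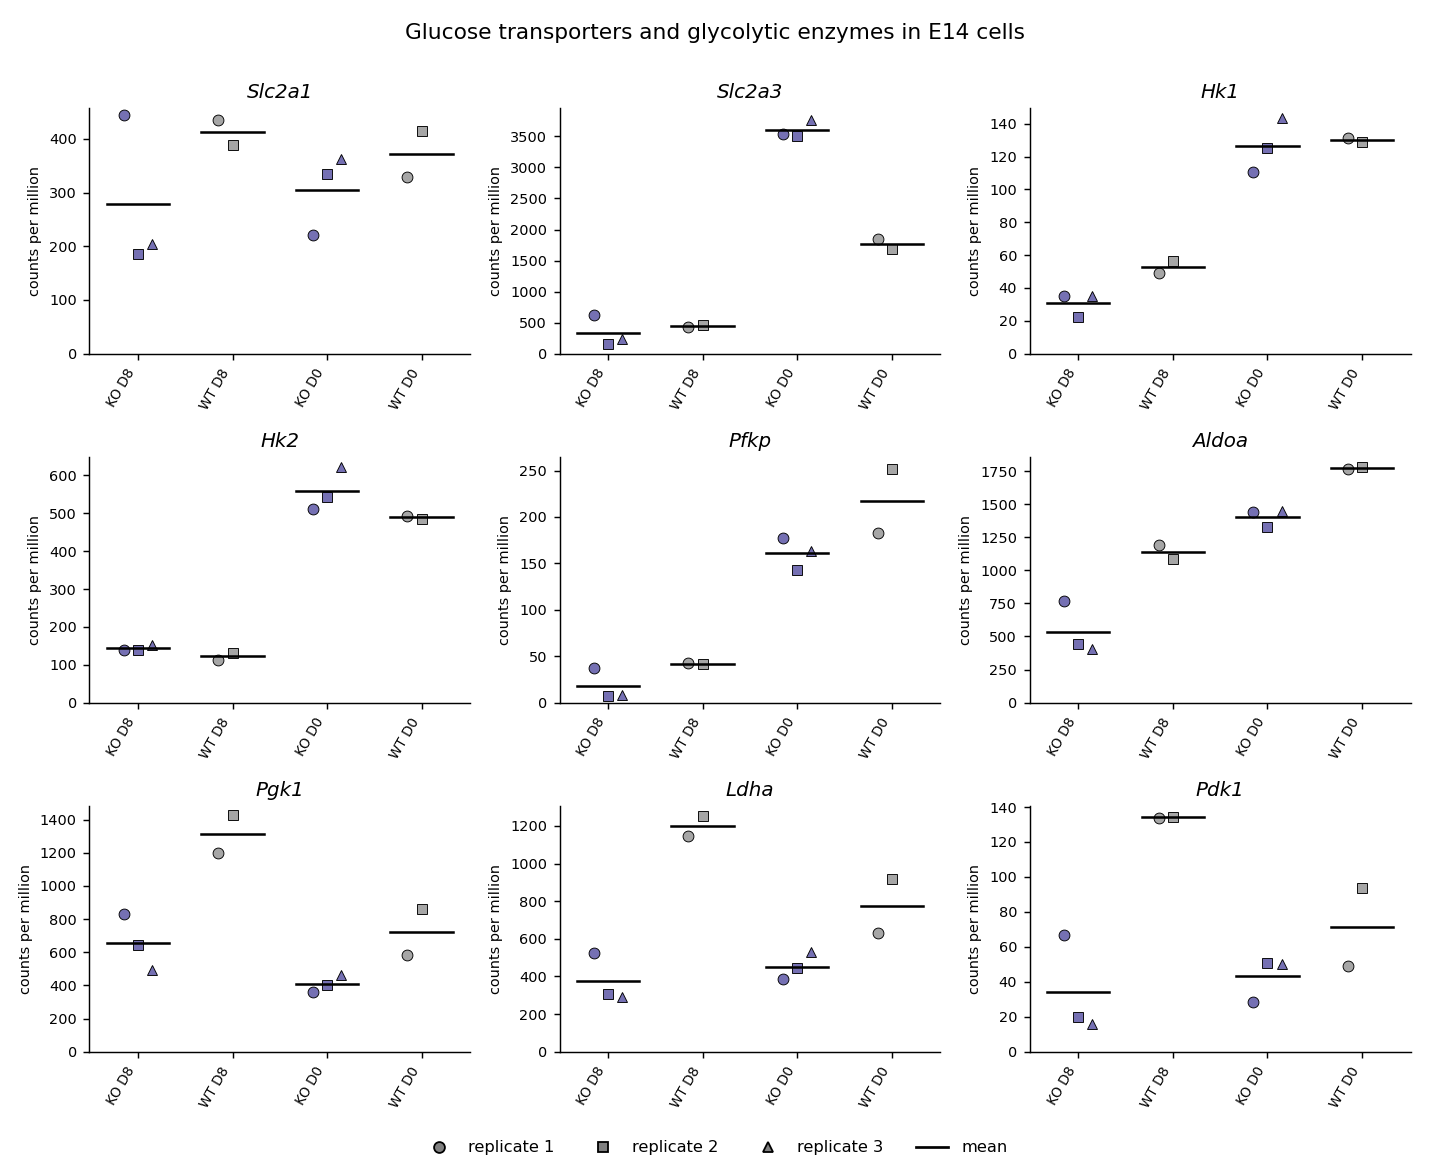
Levels of the 9 counted genes in the 10 cell libraries, in CPM on an axis that starts at 0. Purple marks KO and grey WT, shapes mark replicates (triangle, replicate 3) and bars are means. Ldha is at 289 to 525 CPM in the 3 KO D8 libraries, below the 1149 and 1255 CPM of the WT D8 libraries, and Slc2a3 is highest in the KO D0 libraries.

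At D8, Ldha, Pdk1, Aldoa, Pgk1 and Hk1 were lower in KO than in WT progenitors. Ldha had 525, 308 and 289 CPM in KO D8 cells, against 1149 and 1255 CPM in WT D8 cells (-1.68 ± 0.26, edgeR adjusted p = 0.00256). Pdk1 had 66.5, 19.9 and 15.8 CPM in KO cells and 134 and 134 CPM in WT cells (-1.98 ± 0.51, edgeR adjusted p = 0.0204). In both genes every KO library lay below both WT libraries. Aldoa had 766, 439.9 and 405 CPM in KO cells and 1195 and 1084 CPM in WT cells (-1.09 ± 0.23, edgeR adjusted p = 0.00964). Pgk1 had 831, 646 and 492 CPM in KO cells and 1199 and 1426 CPM in WT cells (-1.0 ± 0.23, edgeR adjusted p = 0.0132). Hk1 had 34.9, 22.1 and 34.8 CPM in KO cells and 49.3 and 56.4 CPM in WT cells (-0.79 ± 0.20, edgeR adjusted p = 0.0194). These 3 genes did not overlap between genotypes either. Such non-overlap was not counted over all genes and is a description only. In all 5 of 9 members were called, all lower, where 20.5% of all genes were called and 10.4% were called lower. The median fold change was -1.0 over the members and -0.06 over all genes. The windows printed above belong to Ldha, Pdk1, Pgk1 and Aldoa. The first listed window of Hk1, the fifth gene, held no match of the core motif and its second held 5.

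The 4 other members did not pass at D8. Hk2 had 139.7, 138 and 152 CPM in KO cells and 113 and 131 CPM in WT cells (0.23 ± 0.14, 95% interval -0.09 to 0.54). Slc2a1 had 444, 185 and 205 CPM in KO cells and 435 and 389 CPM in WT cells, Slc2a3 626, 159 and 228 CPM in KO cells and 426 and 459 CPM in WT cells, and Pfkp 37.0, 7.49 and 8.78 CPM in KO cells and 42.4 and 41.6 CPM in WT cells. In the 2 transporters KO replicate 1 lay above both WT libraries and the other 2 KO libraries lay below both, while in Pfkp all 3 KO libraries lay below both WT libraries. Their fold changes were -0.57 ± 0.33, -0.39 ± 0.42 and -1.24 ± 0.51 (edgeR adjusted p = 0.236, 0.527 and 0.0997).

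KO D8 replicate 1 stood apart from the other 2 KO D8 libraries in most of these genes, but not over the whole table. The chi-square per degree of freedom of library pairs was 63.9 for KO D8 replicates 1 and 2. It was 25.2 for replicates 1 and 3, and 33.6 for replicates 2 and 3. Without KO D8 replicate 1, 8 of 9 members were called lower in KO cells, where 37.6% of all genes were called in that fit against 20.5% with it. They were Slc2a1 (-0.99, edgeR adjusted p = 0.00363), Slc2a3 (-1.11, 0.000499) and Pfkp (-2.28, 1.06e-05) with the 5 above, of which Ldha was at -1.92 (4.4e-05). Without KO D8 replicate 2, 4 of 9 members were called, where 17% of all genes were. Without KO D8 replicate 3, 12.1% of all genes were called. Omitting each D8 library in turn moved both the number of members called and the share of all genes called. Ldha kept its call each time. Hk1 lost it without WT D8 replicate 1 (-0.88, edgeR adjusted p = 0.0704) or 2 (-0.68, 0.125), Aldoa without WT D8 replicate 1 (-1.01, 0.0751), and Pgk1 without WT D8 replicate 1 (-1.12, 0.0527) or 2 (-0.87, 0.0915). Pdk1 lost it without KO D8 replicate 2 (-1.70, 0.133), KO D8 replicate 3 (-1.64, 0.0587), WT D8 replicate 1 (-1.98, 0.0894) or WT D8 replicate 2 (-1.97, 0.0758). In a fit of the 2 D8 groups alone, where 5.14% of all genes were called, only Ldha was called, though all 5 kept their direction.

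Markers of cell types differed between the D8 genotypes as well. Neural progenitor markers summed to 374, 372 and 467 CPM in KO D8 cells, against 646 and 673 CPM in WT D8 cells, and neuron markers to 138, 273 and 290.1 CPM in KO cells, against 1081 and 766 CPM in WT cells. Definitive endoderm markers summed to 164, 302 and 425 CPM in KO cells, against 65.4 and 43.6 CPM in WT cells, and naive pluripotency markers to 158, 116 and 146 CPM in KO cells, against 33.7 and 67.9 CPM in WT cells. Of all these markers, 1 definitive endoderm marker was at 0 in KO D8 replicate 2, and the others were counted in every D8 library. The KO libraries also held 1 to 4 counts of the Y-linked Ddx3y, against 220 to 405 in the WT libraries. The part of these differences in the members' values was not tested.

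In ES cells no member was called between genotypes by edgeR, where 0.246% of all genes were called. Slc2a3, Pgk1 and Ldha reached an unadjusted p under 0.05, as did 2072 of 14629 genes. DESeq2 called Pgk1, where it called 3.04% of all genes. Slc2a3 had 3535, 3512 and 3772 CPM in KO D0 cells, against 1845 and 1679 CPM in WT D0 cells, with no overlap (1.03 ± 0.43, edgeR adjusted p = 0.313). Pgk1 had 359, 404 and 465 CPM in KO cells and 582 and 859 CPM in WT cells (-0.81 ± 0.23, edgeR adjusted p = 0.158), and Ldha 384, 442 and 532 CPM in KO cells and 629 and 918 CPM in WT cells (-0.77 ± 0.26, edgeR adjusted p = 0.219). The other 6 members had fold changes between -0.72 (Pdk1) and 0.19 (Hk2). A fit of the D0 groups alone called Slc2a3, Pgk1 and Aldoa, where 15.5% of all genes were called. Slc2a3 and Hk2 lie on chromosome 6, whose genes had a median KO over WT fold change of 0.29 at D0 and 0.37 at D8, against 0.01 and -0.06 over all genes. X-linked genes, of which Pgk1 is 1, had medians of -0.19 at D0 and -0.09 at D8. The part of these shifts in Slc2a3, Hk2 and Pgk1 was not tested.

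The genotype difference at D8 was not shown to exceed that at D0 for any member: 0 of 9 passed in edgeR (5.26% of all genes) and in DESeq2. Slc2a3, Hk1, Aldoa and Ldha reached an unadjusted p under 0.05, a threshold for which no share of all genes is given here. The differences of differences were -1.42 ± 0.60 for Slc2a3, -0.91 ± 0.37 for Ldha and -0.75 ± 0.33 for Aldoa (edgeR adjusted p = 0.163, 0.152 and 0.186). Without KO D8 replicate 1, 24.7% of all genes passed and 6 members did, among them Slc2a3 (-2.15, edgeR adjusted p = 0.000266), Ldha (-1.16, 0.00865) and Pdk1 (-2.13, 0.00916).

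Genes around the members were compared between the D8 genotypes too, where 20.5% of all genes were called and 10.4% called lower. Of the 5 genes of the remaining glycolytic steps, 2 were lower in KO D8 cells. Pgam1, phosphoglycerate mutase, had 364, 266 and 268 CPM in KO cells, against 546 and 656 CPM in WT cells (-1.01 ± 0.17, edgeR adjusted p = 0.00359). Gpi1, glucose-6-phosphate isomerase, had 425, 273 and 273 CPM in KO cells, against 653 and 567 CPM in WT cells (-0.92 ± 0.19, edgeR adjusted p = 0.00867). Of the 18 isozymes tested, 3 were lower and 1 higher in KO cells, together near the share of all genes called. Eno2, the neuronal enolase (-1.76 ± 0.32), Pfkl (-1.18 ± 0.24) and Pfkm (-0.61 ± 0.16) fell, and Hkdc1 rose (2.64 ± 0.42). Lactate and pyruvate transport moved in both directions, with Slc16a1 at 166, 175 and 162 CPM in KO cells, against 76.1 and 84.4 CPM in WT cells (1.07 ± 0.14, edgeR adjusted p = 0.0013), and Slc16a3 lower (-2.48 ± 0.78, edgeR adjusted p = 0.0448). None of 7 pentose phosphate genes was called, of 16 genes of the citric acid cycle 5 were higher and 0 lower, and of 12 genes of gluconeogenesis and glycogen 1 was higher and 3 lower. Of 15 regulators, 4 of them also HIF targets, 2 were higher and 3 lower.

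Of 19 other HIF targets, 14 rose and 0 fell between D0 and D8 in WT cells, where 29.4% of all genes rose and 27.3% fell (median fold change 1.48, beside 0.02 over all genes), among them the pro-death protein gene Bnip3l (1.68 ± 0.16), the HIF prolyl hydroxylase Egln1 (1.48 ± 0.20) and the stress-induced Ddit4 (2.85 ± 0.40). The 14 became 10 to 13 when 1 WT library was left out. In KO cells over the same interval 10 rose and 3 fell, where 33.4% of all genes rose and 31% fell (median 0.75, beside 0.05). At D8, 7 were lower and 1 higher in KO than in WT cells, where 20.5% of all genes were called and 10.4% called lower (median -0.66, beside -0.06), in a comparison that uses the same WT D8 libraries. Vegfa had 68.8, 20.9 and 31.0 CPM in KO cells, against 154 and 143 CPM in WT cells (-1.89 ± 0.37, edgeR adjusted p = 0.00649). Pfkfb3, which makes the activator of phosphofructokinase, had 26.3, 12.2 and 14.96 CPM in KO cells, against 71.2 and 60.9 CPM in WT cells (-1.89 ± 0.30, edgeR adjusted p = 0.00263). Egln1 had 67.6, 45.7 and 52.9 CPM in KO cells, against 115 and 151 CPM in WT cells (-1.26 ± 0.18, edgeR adjusted p = 0.00194). P4ha2, a collagen prolyl hydroxylase, went the other way, with 289, 857 and 917 CPM in KO cells, against 79.7 and 106 CPM in WT cells (2.89 ± 0.45, edgeR adjusted p = 0.00258). The 7 lower calls became 11 without KO D8 replicate 1 and 4 without each of the other D8 libraries, and at D0 0 of 19 were called. The RNA of Hif1a, a gene picked out after its values were seen, did not pass (-0.04 ± 0.13, edgeR adjusted p = 0.835), while Epas1 had 133, 129 and 234 CPM in KO cells, against 22.5 and 27.1 CPM in WT cells (2.73 ± 0.27, edgeR adjusted p = 0.000742).

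**Figure D5:**
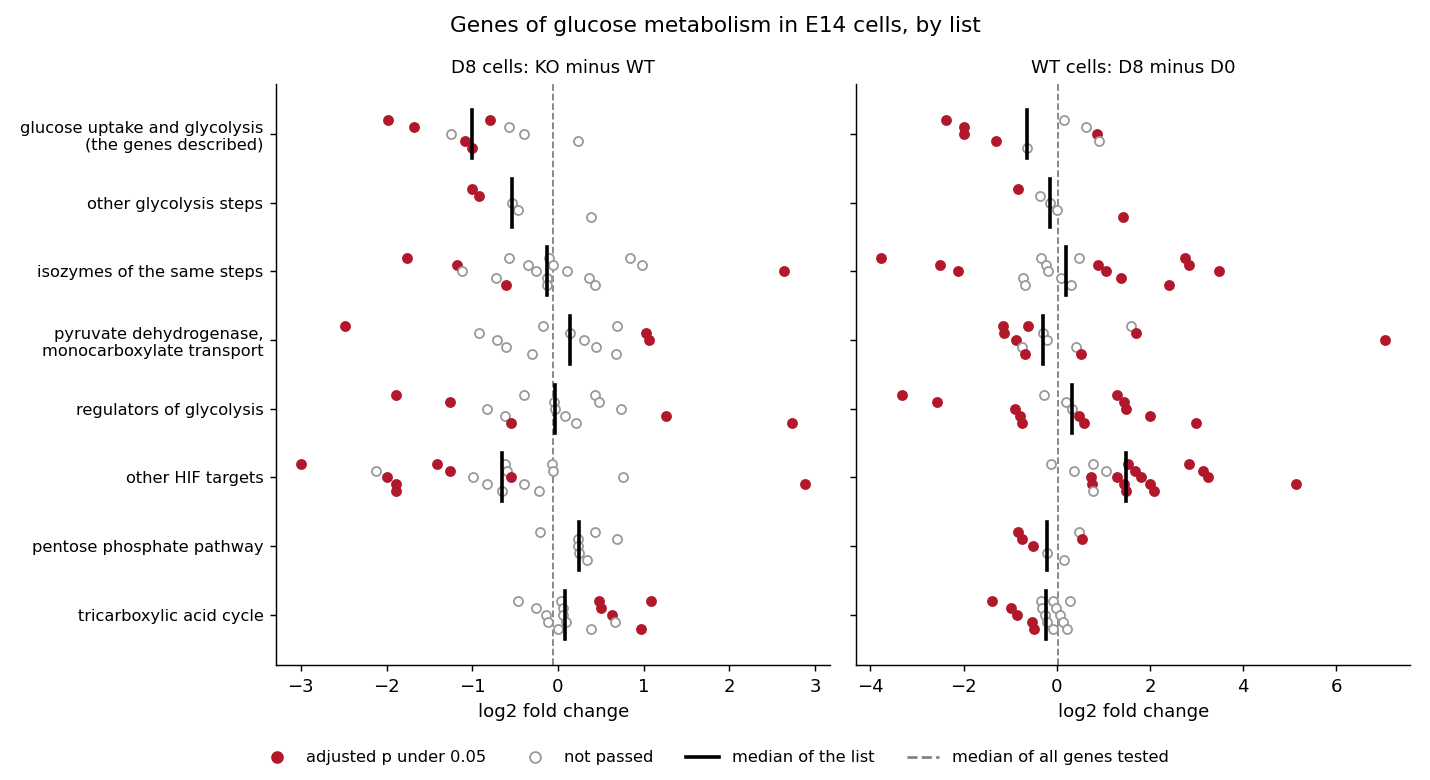
Log2 fold changes of the tested genes of each pathway list, in KO over WT cells at D8 and in WT cells at D8 over D0. Each dot is a gene, bars are list medians and the dashed line is the median of all genes. The HIF targets have a median of -0.66 in KO over WT cells at D8 and 1.48 in WT cells between D0 and D8.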

How the data were processed

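Whole-number counts per gene were used as the authors deposited them, in 1 table of embryos and 1 of cells. Per the submitters' processing notes, CASAVA 1.8, TopHat2 2.0.9, BWA and the mm10 build were used, with no role given for each. For the gene counter, and its treatment of strand and of near copies, no name is given in the sources used here. Libraries were made with Nextera XT from embryos and with a NEBNext kit from cells, per the labels' protocols, so the 2 tables were fitted apart. Of the embryo columns, 6 match no sample of the series and were not used. Of the gene names for cells, 27 had been turned into dates.

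Genes were kept by edgeR's filterByExpr (minimum count 10, minimum total 15), which left 14403 genes in embryos and 14629 in cells, and libraries were scaled by TMM. All groups of a table entered a single quasi-likelihood fit (edgeR 4.0.16, R 4.3.3), without a replicate block, and SEs were taken from the F statistic. The ExE comparisons at E7.0 and E7.5 were against the mean of the embryonic regions. The fits were tested on simulated counts. Alternatives were DESeq2 1.42.0, its size factors in edgeR, total-count scaling, other filters, a replicate block, a fit of the compared groups alone, and leaving out each library. Intervals and depth cover counting and spread between libraries only. The samples' pairing by number was checked by the correlation of their deviations from group means.

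Members, gene lists and marker lists were chosen with earlier results of these data known. All 10 members are named. From each list, genes were taken from the up to 4 called per direction with the smallest p, and not every list has a named gene in every comparison, with the 5 genes most like Slc2a1, Slc2a3 and Ldha over the embryo group means. Of these, 1 is not reported here. Promoter windows and gene positions are RefSeq's (GRCm38.p6).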

Additional observations from a re-analysis of the deposited data

Results flagged for a closer look

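For 0 of the 9 tested members, but for 9 genes of the pathway lists, the KO over WT difference changed between D0 and D8 by the interaction of genotype and day in edgeR over all genes. The changes in log2 fold change, D8 minus D0, were -3.38 ± 0.48 (SE) for Eno2 (edgeR adjusted p = 0.00817), -0.92 ± 0.23 for Pfkm (edgeR adjusted p = 0.0408) and -1.35 ± 0.29 for Gys1, glycogen synthase (edgeR adjusted p = 0.0284). Of the HIF targets and regulators, Vegfa had -2.35 ± 0.54 (edgeR adjusted p = 0.0332) and Egln1 -1.10 ± 0.26 (edgeR adjusted p = 0.0367), while P4ha2 had 2.89 ± 0.59 (edgeR adjusted p = 0.0249) and Epas1 2.16 ± 0.36 (edgeR adjusted p = 0.0133). Slc16a1 had 1.45 ± 0.19 (edgeR adjusted p = 0.00817), and Sdhd, a subunit of succinate dehydrogenase, 0.84 ± 0.22 (edgeR adjusted p = 0.0466). Of all genes, 5.26% were called in this comparison.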

How the results depend on the processing

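No fold change of a member that was called turned its direction under any alternative. Fold changes were followed only for members called by the main fit or by at least 1 alternative in a comparison. Recomputed under the alternatives, 559 of these kept their side of the threshold, 43 fell below it and 39 came to pass it. In the counts that follow, brackets hold the share of all genes called in the same fit. A fit of the compared groups alone called 5 members in ExE at E6.5 (29.9%) and 1 at E7.0 (8.04%). It called 0 in AM over A (0.0228%) and 1 in ExE over stages (2.88%). In KO over WT cells it called 3 at D0 (15.5%) and 1 at D8 (5.14%). DESeq2 called 2 in ExE at E6.5 (14.1%) and 1 in P over A at E7.5 (1.62%). It also called 1 in ExE over stages (2.94%) and 1 at D0 (3.04%). With no filter 2 were called in ExE at E6.5 (7.89%) and 1 in P over A at E7.5 (1.77%). With total-count scaling 1 was called in ExE at E7.5 (15.3%). Leaving out 1 library moved both the number of members called and the share of all genes called in ExE at each stage. The same held for P over A and AM over A at E7.5, D8 KO over WT cells and the interaction. In embryo groups and WT cell groups this left 1 library, so counts from those fits are not given here. Without KO D8 replicate 1, 8 members were called in D8 KO over WT cells (37.6% of all genes) and 6 in the interaction (24.7%). Without KO D8 replicate 2, 4 members were called in D8 KO over WT cells (17%). The cause of these shifts was not tested. The share of all genes called ranged over the other settings between 7.43% and 29.9% in ExE at E6.5, between 5.14% and 24.9% in D8 KO over WT cells and between 0.0342% and 15.5% at D0. Total-count scaling shifted the median fold change of all genes by -0.63 to 0.44. It moved the share of calls that were higher to 63.1% in ExE at E6.5 (41.3% with TMM), 69.6% at E7.0 (55.2%), 44.5% at E7.5 (62.9%), 62.4% in WT D8 over D0 cells (51.9%) and 37.8% in D8 KO over WT cells (49.0%). The labels do not say what a replicate number shares. In the data, at E6.5 and E7.5 every replicate 2 library had 0 or 1 count of Ddx3y and every replicate 1 library 672 to 1174. Deviations of same-numbered samples correlated between 0.06 and 0.56 over pairs of embryo groups of the same stage. The values were 0.36, 0.37 and 0.56 between AM, P and A at E7.5. Over pairs of cell groups they ranged between -0.04 and 0.17. A fit with the replicate block called 3 members in place of 2 in ExE at E7.5 (26.7% of all genes), with Pdk1 added (0.82, edgeR adjusted p = 0.0207). It called 6 in place of 5 in WT D8 over D0 cells (55.5%). With that block the counts were 1 in ExE at E6.5 (12.9%), 3 at E7.0 (22.6%) and 1 in AM over A (3.03%). They were 6 in KO D8 over D0 cells (62.8%), 5 in D8 KO over WT cells (16.2%) and 0 elsewhere. The counts of HIF targets without single libraries were added after seeing the data. At 2 libraries a group, Hk1 rests on as few as 2 counts in P replicate 2 at E7.0.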

Other observations

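The citric acid cycle oxidises what pyruvate dehydrogenase delivers. Of its 16 listed genes, 5 were higher and 0 lower in KO than in WT D8 cells, where 20.5% of all genes were called. Suclg1 and Sucla2, subunits of succinyl-CoA ligase, had fold changes of 1.08 ± 0.20 and 0.96 ± 0.17 (SE; edgeR adjusted p = 0.00554 and 0.00422), and Suclg2 0.63 ± 0.16 (edgeR adjusted p = 0.0216). Suclg1 had 202, 350 and 237 CPM in KO D8 cells, against 124 and 124 CPM in WT D8 cells, with no overlap. In WT cells 5 of the 16 were lower at D8 than at D0, a share near the 27.3% of all genes called lower, among them Ogdh, a subunit of the oxoglutarate dehydrogenase complex (-1.38 ± 0.27, edgeR adjusted p = 0.00115), and Mdh2, mitochondrial malate dehydrogenase (-0.85 ± 0.15, edgeR adjusted p = 0.000686).

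The log2 ratio of Hk2 to Hk1 counts, which like the transporter ratio needs no scaling between libraries, was 2.99 and 2.92 in ExE at E6.5, against 4.93 and 4.77 in Epi. At E7.0 it was 4.92 and 5.57 in ExE, 6.70 and 9.50 in P and 7.14 and 6.84 in A, the value of 9.50 resting on 2 counts of Hk1. At E7.5 ExE overlapped the embryonic regions, with 5.16 and 4.94 in ExE, 5.47 and 5.39 in AM, 6.70 and 6.16 in P and 6.28 and 4.97 in A. In D8 cells it was 2.0, 2.65 and 2.12 in KO libraries, against 1.19 and 1.22 in WT libraries, while in D0 cells it was 2.21, 2.12 and 2.12 in KO libraries and 1.91 and 1.91 in WT libraries. These ratios are given as values, with no test.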
